A study of Mus musculus with 6 samples.

Results

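The respiratory chain genes were the nuclear genes whose array names begin with Nduf followed by a subunit letter and a number, Sdha to Sdhd, Uqcr, Cox4 to Cox8, or Atp5. The rule matched 117 of the 45281 probes of the array, under 79 gene names, and used no measured value. Of these probes, 99 passed the detection filter (detection p under 0.05, 3 or more arrays of 6), and they represented 71 of the 12426 genes tested. The cells were sorted DN3 thymocytes, CD44 negative and CD25 positive, a stage before CD4 and CD8 appear at which the T cell receptor beta chain is put to the test. Wild-type C57BL/6 mice gave 3 samples and mice with a transgene for miR-185 (miR-185 Tg) gave 3, each measured on 1 bead array (Illumina MouseWG-6 v2.0). The sources used here do not give the promoter of the transgene, the age of the mice or how many mice stand behind a sample. The p-values therefore rest on the spread of these 6 samples alone, and that spread may be technical.

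The respiratory chain of the inner mitochondrial membrane passes electrons from NADH (complex I) and succinate (complex II) through complex III to oxygen at complex IV. Complexes I, III and IV pump protons, and complex V, the ATP synthase, uses their return to make ATP. Most subunits are encoded in the nucleus, while a small set, with the catalytic subunits of complex IV among them, is encoded in mitochondrial DNA. Thymocytes that pass beta-selection proliferate and raise both glycolysis and respiration. Several small subunits of complex IV exist as a common form and a form restricted to a tissue such as striated muscle or testis.

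The labelled cell type was checked against marker genes. All 10 DN3 marker genes examined, among them Ptcra and Rag1, were tested, and no probe of Cd8a, Itgam, Itgax or Klrb1c was detected on any array (0), while Cd8b1, Cd44 and Ptprc were detected on all 6 and Cd4 on 2. The B cell gene Cd79b was detected on all 6 as well. The median bead number of a probe was 41 to 42 on every array, and each array detected 39.5% to 41.8% of all probes, and between 97 and 99 of the 117 respiratory chain probes. The summed linear level of 7 red blood cell markers ranged from 498 to 15035 in wild type and from 1072 to 2192 in Tg, and that of 7 neutrophil markers from 167 to 785 and from 137 to 182. The summed level of the DN3 markers was 27033 to 32110 in wild type and 37038 to 47063 in Tg. Of these 10 genes 8 were positive, against 49.9% of all genes, and 2 were called higher, Il2ra and Dtx1, against 2.55% of all genes. Rag1 and Rag2 were negative, with log2 fold changes of -0.64 and -0.26 (limma, adjusted p = 0.396 and 0.626). The brightest genes, which weigh most in the sum, were Lck and Cd3e, and neither was called (limma, adjusted p = 0.173 and 0.0631). The summed level of 5 sex-linked genes was 1955 to 2345 in wild type and 660 to 6935 in Tg. Tg 2 stood apart in the Y-linked genes, with log2 intensities of 4.56 for Eif2s3y and 6.06 for Ddx3y against 7.95 to 8.87 and 9.06 to 10.49 on the other arrays, and Tg 3 had the highest Xist, 12.30 against 9.02 to 10.41. Calls among the 71 genes that change without Tg 2 are given with and without it. The part of these lists in the results below was not tested. Wild-type arrays 2 and 3 were much alike, and over the 71 genes their median absolute log2 difference was 0.05, against 0.16 to 0.33 for the other 14 pairs of arrays. In bulk samples, fewer cells of a type and less RNA per cell cannot be told apart.

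Nuclear genes of the chain are known targets of the factors NRF1 and GABP (an ETS factor), with YY1 and SP1. Of the 79 genes, 64 had a promoter in the RefSeq table of GRCm38.p6, in 70 windows from 250 bases before to 50 bases after a start. GCGCATGC, the core of the NRF1 motif, was present in 14.3% of these windows, against 2.71% of all 32851 windows, and the ETS motif CCGGAAG in 21.4% against 8.86%. The YY1 motif AAGATGGC was present in 17.1% against 2.75%, the SP1 motif GGGCGG in 41.4% against 35.7%, and the E-box CAGCTG in 7.14% against 16.3%. Both strands were searched, and overlapping matches were counted. These shares are descriptions of letters in a window, and binding was not measured. Windows of 3 genes are printed because they show a common subunit with NRF1 and ETS motifs (Cox6a1, chr5:115348909-115349208, minus strand) and a pair of a common and a testis form (Cox6b1, chr7:30626065-30626364, and Cox6b2, chr7:4753045-4753344, both minus strand), with every match to these motifs in capitals.
Cox6a1: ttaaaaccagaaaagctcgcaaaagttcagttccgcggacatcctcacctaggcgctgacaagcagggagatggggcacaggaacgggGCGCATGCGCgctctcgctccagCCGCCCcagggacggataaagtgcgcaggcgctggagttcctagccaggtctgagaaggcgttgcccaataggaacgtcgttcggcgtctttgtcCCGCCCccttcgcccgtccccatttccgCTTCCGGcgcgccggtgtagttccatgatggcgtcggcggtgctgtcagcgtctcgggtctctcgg
Cox6b1: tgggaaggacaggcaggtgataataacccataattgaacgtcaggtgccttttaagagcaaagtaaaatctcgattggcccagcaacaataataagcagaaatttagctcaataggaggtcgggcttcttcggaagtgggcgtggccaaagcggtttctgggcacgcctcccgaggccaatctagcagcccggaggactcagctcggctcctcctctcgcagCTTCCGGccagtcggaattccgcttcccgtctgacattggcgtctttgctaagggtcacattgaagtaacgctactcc
Cox6b2: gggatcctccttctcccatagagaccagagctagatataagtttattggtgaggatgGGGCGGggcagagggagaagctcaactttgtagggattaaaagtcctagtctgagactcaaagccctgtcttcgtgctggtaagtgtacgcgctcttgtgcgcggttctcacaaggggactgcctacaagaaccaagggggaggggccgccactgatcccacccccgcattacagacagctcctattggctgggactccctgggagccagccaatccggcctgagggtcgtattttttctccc
The Cox6a1 window held 2 NRF1 matches, which overlap as the palindrome is read on both strands, with 1 ETS and 2 SP1 matches, the Cox6b1 window 1 ETS match, and the Cox6b2 window 1 SP1 match. Of the 4 windows of tissue forms, 0 held an NRF1, ETS or YY1 match, 2 an SP1 match and 1 an E-box, and 4 windows are too few to set against the shares above.

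Cox6a2, the heart and skeletal muscle form of a complex IV subunit, was higher in miR-185 Tg than in wild-type cells, and no other respiratory chain gene passed the test. Of the 71 genes tested, 1 was called (limma, Benjamini-Hochberg adjusted p under 0.05 over all 12426 genes), 1 higher and 0 lower, where 4.23% of all genes tested were called, 2.55% higher and 1.68% lower. At an unadjusted p under 0.05, 2 were higher and 3 lower, against 20% of all genes in either direction. Groups did not overlap in 14 genes, with Tg higher in 6 and lower in 8. That is 19.7% of the 71, against 28.2% of all genes. The median log2 fold change of the 71 genes was -0.05, with 30 positive and 41 negative, against -0.0014 over all genes, of which 49.9% were positive. The sign of the median for the 71 genes was not stable: it was 0.03 without wild type 1, 0.03 without Tg 1, 0.0028 with median scaling and 0.0078 with cyclic loess. It was -0.10 without wild type 2 and -0.09 without Tg 2. Within 0.5 on the log2 scale of no difference lay 67 of the 71 genes, or 94.4%, against 75% of all genes. The respiratory chain probes were bright, with a median log2 intensity of 11.81 against 7.51 over all genes, and their median SE of a difference was 0.18 against 0.23. Between the quartiles of their levels, 9.63 and 12.67, lay 2530 of all genes tested, and 76% of these were within 0.5. The part of brightness was not tested.

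**Figure D1:**
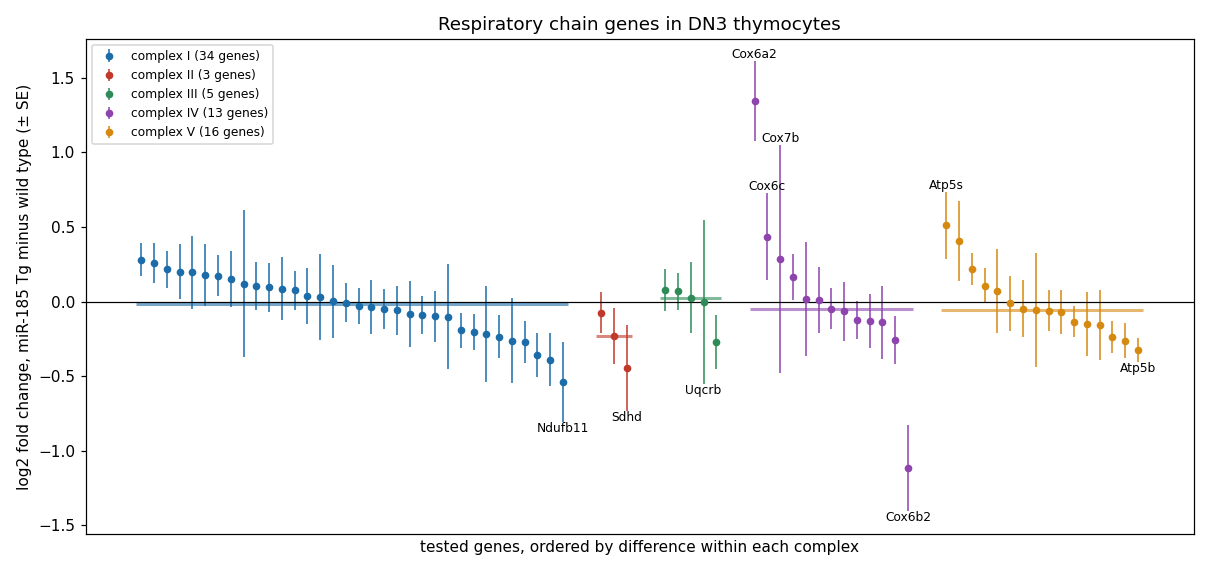
The log2 fold change of each of the 71 tested genes (point, miR-185 Tg minus wild type, vertical axis) with its SE (bar), grouped by complex I to V along the horizontal axis, with the median of each complex as a horizontal line. The complex medians lie between -0.23 and 0.03, and Cox6a2 at 1.34 and Cox6b2 at -1.12 lie farthest from 0.

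Complex I, which oxidises NADH, had 34 tested genes, 16 positive and 18 negative, with a median log2 fold change of -0.02 and a range of -0.54 to 0.28. None (0) was called, with 1 higher and 1 lower at an unadjusted p under 0.05. Groups did not overlap in 7 of the 34, or 20.6%, against 28.2% of all genes. The core subunits carry the flavin, the iron-sulphur clusters and the quinone site. Of 7 core genes, Ndufs1 had no detected probe, and of the other 6, 5 were negative, with a median of -0.16. Ndufv1, whose product binds NADH, had a log2 intensity of 12.43, 12.20 and 12.18 on wild-type arrays 1, 2 and 3 and of 11.80, 12.13 and 11.80 on Tg arrays 1, 2 and 3. Each Tg value lay below each wild-type value, Tg 2 by the smallest margin, with a log2 fold change of -0.36 ± 0.15 (SE; limma, adjusted p = 0.227). Ndufv2, its iron-sulphur partner, had values of 12.27, 12.31 and 12.24 in wild type and of 11.78, 12.05 and 12.19 in Tg. The groups did not overlap, with a log2 fold change of -0.27 ± 0.14 (SE; limma, adjusted p = 0.343).

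Among the 27 genes counted by name as accessory subunits of complex I, which surround the core, 15 were positive and 12 negative, with a median of 0.03. Ndufa4 was among them, and an alternative counted it with complex IV. Ndufa13, also known as GRIM-19, had log2 readings of 13.36, 13.15 and 13.21 on the wild-type arrays and 13.40, 13.58 and 13.58 on the Tg arrays. The groups did not overlap, though wild type 1 and Tg 1 lay close together, and the log2 fold change was 0.28 ± 0.11 (SE; limma, adjusted p = 0.207). The lowest value of the complex was that of Ndufb11, with 6.19, 6.24 and 6.28 in wild type and 5.33, 6.25 and 5.52 in Tg. Its Tg 2 value lay among the wild-type values, and its log2 fold change was -0.54 ± 0.27 (SE; limma, adjusted p = 0.315). Without Tg 2 Ndufb11 and Ndufv1 passed, with log2 fold changes of -0.81 and -0.47 (adjusted p = 0.0235 and 0.042, limma). The difference of Ndufb11 was -0.22 without background correction and -0.15 on the authors' log2 series values after quantile normalization. Ndufa12l, now named Ndufaf2, matched the rule by name and encodes an assembly factor. It had 10.26, 9.61 and 9.88 in wild type against 9.41, 9.35 and 10.21 in Tg, with overlapping groups and a log2 fold change of -0.26 ± 0.29 (SE; limma, adjusted p = 0.665), which ran from -0.54 without Tg 3 to -0.09 without wild type 1.

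Complex II, which oxidises succinate and is also an enzyme of the citric acid cycle, had 3 tested genes, all with negative values and a median of -0.23, and 0 were called, with 0 at an unadjusted p under 0.05. Sdha, which encodes the flavoprotein, had 2 probes, and neither was detected on any array. Sdhd, a membrane anchor, had log2 readings of 8.73, 8.20 and 8.42 on the wild-type arrays and 7.54, 8.04 and 8.43 on the Tg arrays. Tg 1 was lowest and Tg 3 lay within the wild-type range, so the groups overlapped, with a log2 fold change of -0.45 ± 0.29 (SE; limma, adjusted p = 0.448). It ran from -0.66 without Tg 3 to -0.21 without Tg 1. Sdhb, the iron-sulphur subunit, had 3 kept probes with log2 fold changes of -0.45, -0.31 and -0.23, of which the brightest had the smallest difference. Sdhc, the other membrane anchor, had 11.11, 11.14 and 11.13 in wild type and 10.94, 11.18 and 11.04 in Tg, again overlapping, with a difference of -0.07 ± 0.14 (SE).

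Complex III, which passes electrons from ubiquinol to cytochrome c, had 5 tested genes, 3 positive and 2 negative, with a median of 0.03, and 0 were called, with 0 at an unadjusted p under 0.05. The probes of Uqcrfs1, the Rieske iron-sulphur protein, and of Uqcrq were not detected on any array. The core protein gene Uqcrc1 had log2 readings of 12.25, 11.78 and 11.81 on the wild-type arrays and 11.86, 11.72 and 11.44 on the Tg arrays, with overlapping groups and a log2 fold change of -0.27 ± 0.18 (SE; limma, adjusted p = 0.462), which was -0.12 without wild type 1 and -0.16 without Tg 3. Its partner Uqcrc2 had 12.60, 12.58 and 12.66 in wild type and 12.70, 12.10 and 13.12 in Tg, so the Tg values lay on both sides of the wild-type values. Uqcrb was the widest of the complex, with 8.03, 8.33 and 8.26 in wild type and 7.24, 7.77 and 9.61 in Tg. Its fold change was -0.01 ± 0.55 (SE; limma, adjusted p = 0.997), so that a sizeable difference in either direction was not detectable with these arrays. Uqcrh, the hinge protein gene, had 13.05, 13.14 and 13.15 in wild type and 13.19, 12.94 and 13.44 in Tg, a difference of 0.08 ± 0.14 (SE), which was -0.05 without Tg 3.

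Complex IV, cytochrome c oxidase, had 13 tested genes, 6 positive and 7 negative, with a median of -0.05 and the widest range, from -1.12 to 1.34. Of these, 1 was called higher and 0 lower, with 1 higher and 1 lower at an unadjusted p under 0.05. Cox6a2 had a log2 intensity of 6.52, 6.29 and 5.95 on wild-type arrays 1, 2 and 3 and of 7.41, 7.96 and 7.41 on Tg arrays 1, 2 and 3. All 3 Tg values lay above all 3 wild-type values, with means of 7.59 ± 0.31 in Tg and 6.25 ± 0.29 in wild type (SD, n = 3 each). Cox6a2 rose by 1.34 ± 0.27 on the log2 scale, or 2.53-fold (SE; limma, adjusted p = 0.0361). By exact permutation (two-sided, 3 against 3) p was 0.1, the smallest possible. The direction held with each array left out, with log2 fold changes of 1.16 to 1.47. The call was lost without wild type 1, wild type 2, wild type 3 or Tg 1 (adjusted p = 0.113, 0.166, 0.215 and 0.0923, limma) and with wild type 2 and 3 averaged (adjusted p = 0.181). On the authors' log2 series values, quantile normalized here with no background correction added, the difference was 0.77. The adjusted p was 0.0467 where a gene with several rows was read from its brightest row (limma). It was 0.0536 where such a gene was read from its first row (limma). Cox6a2 rests on 1 probe, which was dim, with deposited intensities of 144.5 to 188.5 in wild type and of 223.6 to 351.2 in Tg and bead standard errors of 3.02 to 11.8. It was detected on all 6 arrays. Of 10 striated muscle markers, 9 were not detected on any array, Mb was detected on 1, and their summed linear level was 198 to 206 in wild type and 199 to 208 in Tg. Of 8 fat markers 0 were detected on any array.

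Cox6b2, the testis form of another complex IV subunit, had log2 readings of 8.18, 7.98 and 7.72 on the wild-type arrays and 6.36, 6.91 and 7.26 on the Tg arrays. All 3 Tg values lay below all 3 wild-type values. It missed the threshold, with a difference of -1.12 ± 0.29 (SE; limma, adjusted p = 0.0754; exact permutation p = 0.1), and passed without Tg 2 or Tg 3 (adjusted p = 0.0441 and 0.0421, limma). Its size was -0.73 without background correction and -0.53 on the authors' log2 series values after quantile normalization. A second probe of Cox6b2 was not detected on any array. Cox7a1, the heart and skeletal muscle form of one more such subunit, had 7.37, 7.05 and 6.93 in wild type and 6.72, 7.08 and 7.13 in Tg. Its groups overlapped, with a difference of -0.14 ± 0.24 (SE; limma, adjusted p = 0.804). The other 4 tissue forms, Cox4i2, Cox7b2, Cox8b and Cox8c, were not detected on any array. Since probes of Sdha, Ndufs1, Uqcrfs1 and Uqcrq, subunits of every respiring cell, were also not detected, a probe below detection does not show that a transcript is absent.

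None (0) of the common partners of these forms passed the test or had groups that did not overlap. Cox6a1 had log2 readings of 13.12, 13.06 and 13.02 on the wild-type arrays and 13.15, 13.15 and 12.51 on the Tg arrays, with a log2 fold change of -0.13 ± 0.18 (SE; limma, adjusted p = 0.743). Cox6b1 had 12.97, 12.76 and 12.81 in wild type and 12.70, 12.58 and 12.89 in Tg, with -0.12 ± 0.13 (SE; limma, adjusted p = 0.651). The log2 fold change of Cox6a2 exceeded that of Cox6a1 by 1.47, that of Cox6b2 minus that of Cox6b1 was -0.99, and that of Cox7a1 minus that of Cox7a2 was -0.16. An exact two-sided permutation test over the arrays gave p = 0.1, 0.1 and 0.7 for these 3 differences, and p = 0.1 is the smallest it allows. The 9 common genes counted with complex IV had a median of -0.05, from -0.26 for Cox5a to 0.43 for Cox6c, and 0 were called, with 0 at an unadjusted p under 0.05. Among them Cox4i1, a structural subunit, had a difference of -0.05 ± 0.14, and Cox7a2l of 0.16 ± 0.15 (SE). Cox4nb, now named Emc8, matched the rule by name, although its product belongs to a complex of the endoplasmic reticulum membrane. It had 9.76, 9.47 and 9.64 in wild type and 9.44, 10.02 and 9.43 in Tg, a difference of 0.01 ± 0.22 (SE).

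**Figure D2:**
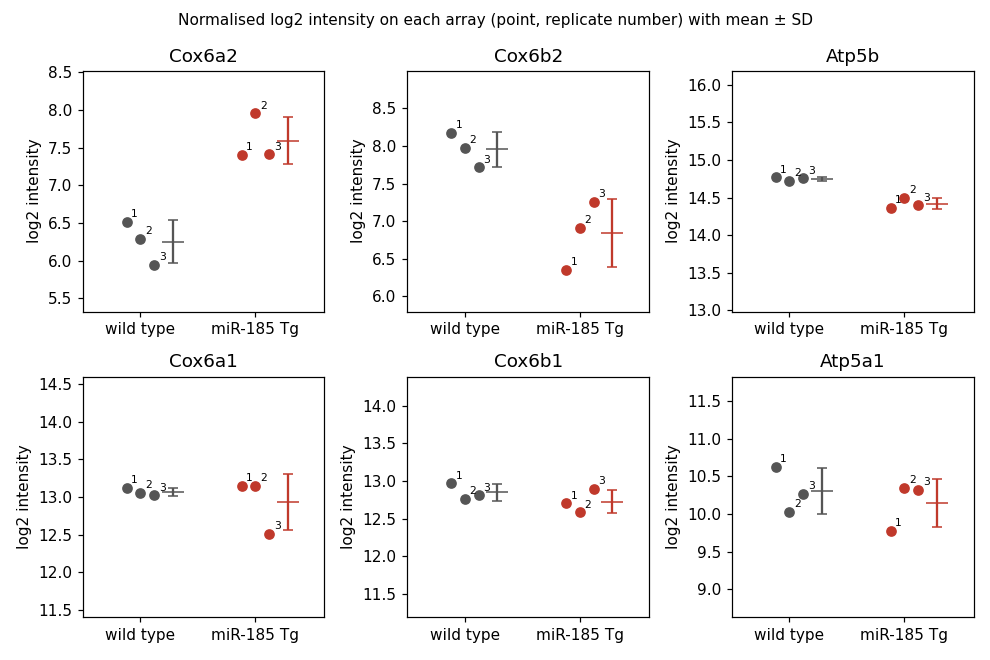
Normalised log2 intensity on each array (points with replicate numbers) with the mean ± SD of each group beside them, for Cox6a2, Cox6b2 and Atp5b in the upper row and Cox6a1, Cox6b1 and Atp5a1 in the lower row; each panel spans the same width on the log2 scale. The Tg points of Cox6a2 lie above, and those of Cox6b2 and Atp5b below, all wild-type points, while the groups overlap in the lower row.

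Complex V, the ATP synthase, had 16 tested genes, 5 positive and 11 negative, with a median of -0.06, and 0 were called, with 0 higher and 1 lower at an unadjusted p under 0.05. The catalytic F1 head was represented by 5 genes with a median of -0.16, 4 of them negative. Atp5b, the catalytic beta subunit, had log2 readings of 14.77, 14.72 and 14.75 on the wild-type arrays and 14.37, 14.50 and 14.40 on the Tg arrays. The groups lay apart and each was tight, with SDs of 0.02 in wild type and 0.07 in Tg (n = 3 each), yet Atp5b missed the threshold at -0.33 ± 0.08 (SE; limma, adjusted p = 0.0664). Without Tg 2 it passed (adjusted p = 0.0295, limma). Atp5c1, the gamma subunit of the rotating stalk, had 12.91, 12.81 and 12.84 in wild type and 12.45, 12.60 and 12.72 in Tg, with no overlap and a log2 fold change of -0.26 ± 0.12 (SE; limma, adjusted p = 0.273). The alpha subunit gene Atp5a1 had 10.62, 10.03 and 10.27 in wild type and 9.77, 10.35 and 10.32 in Tg, with overlapping groups and a difference of -0.16 ± 0.23 (SE). Atp5d and Atp5e, of the central stalk, had differences of -0.01 ± 0.18 and 0.07 ± 0.28 (SE).

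The other 9 subunits of complex V, of the membrane part and the stator stalk, had a median of -0.06, with 2 positive and 7 negative. Atp5o, the stator subunit that holds the head, had log2 readings of 13.48, 13.37 and 13.39 on the wild-type arrays and 13.23, 13.04 and 13.26 on the Tg arrays. Its groups did not overlap, with a log2 fold change of -0.24 ± 0.11 (SE; limma, adjusted p = 0.277). Atp5l, a small membrane subunit, had 13.28, 13.40 and 13.45 in wild type and 13.71, 13.50 and 13.58 in Tg. Here each Tg value was above each wild-type value, with 0.22 ± 0.11 (SE; limma, adjusted p = 0.304). Genes of the proton-conducting c ring, Atp5g2 and Atp5g3, had differences of -0.05 ± 0.19 and -0.14 ± 0.10 (SE). Atp5s and Atp5sl, now named Dmac2l and Dmac2, were matched by name. They were counted in the 16 genes of complex V, but not among its F1 genes or the other 9 subunits. Both were positive, and with subunits only the median of complex V was -0.07. Atp5s had 6.97, 7.24 and 7.26 in wild type and 7.55, 7.86 and 7.60 in Tg, with no overlap and a log2 fold change of 0.51 ± 0.22 (SE; limma, adjusted p = 0.256). Atp5sl had 8.65, 8.58 and 8.53 in wild type and 8.80, 9.55 and 8.63 in Tg, where Tg 2 stood above the rest, with 0.40 ± 0.27 (SE; limma, adjusted p = 0.464) and 0.13 without Tg 2.

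The complexes were compared by their array medians, taking for each gene its deviation from its own mean over the 6 arrays. For complex I these medians were 0.13, -0.10 and -0.02 in wild type 1, 2 and 3 and -0.10, 0.06 and 0.12 in Tg 1, 2 and 3. Complex IV had 0.25, -0.04 and -0.09 in wild type and -0.18, 0.15 and 0.08 in Tg. Complex V had 0.12, -0.07 and 0.0019 in wild type and -0.09, 0.04 and 0.04 in Tg. Wild type 1 was thus the highest and Tg 1 among the lowest arrays of complexes I, IV and V. Complex II had 0.31, -0.03 and 0.08 in wild type and -0.32, 0.09 and -0.05 in Tg. Complex III differed, with -0.03, -0.03 and 0.0030 in wild type and 0.04, -0.21 and 0.29 in Tg, so that Tg 3 was its highest array. In every complex the wild-type and Tg medians overlapped.

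**Figure D3:**
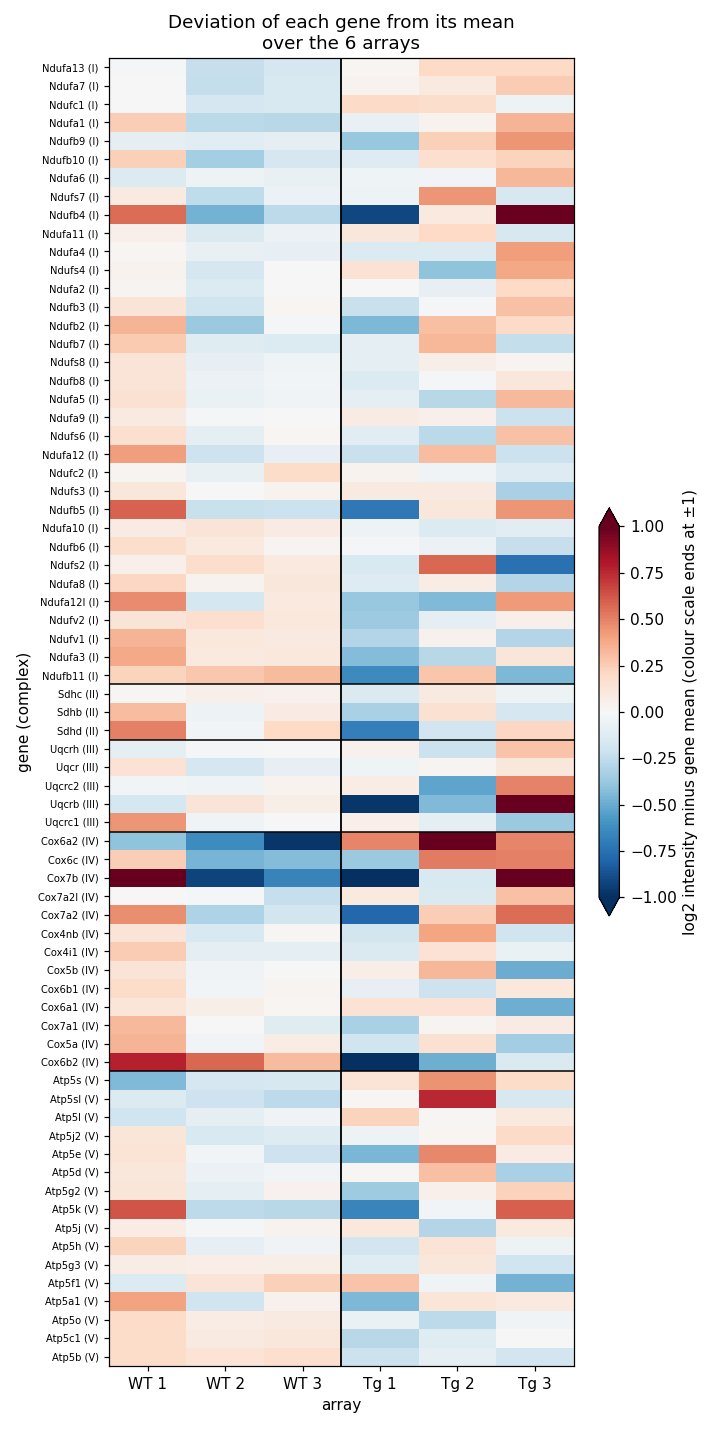
Deviation of each of the 71 genes (rows, grouped by complex) from its own mean over the 6 arrays (columns, wild type left of the vertical line and miR-185 Tg right of it), in log2 units, with red above and blue below the mean and the colour scale ending at 1 in either direction. Wild type 1 held the highest value of 28 genes and Tg 1 the lowest value of 27.

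Some of the genes varied widely between arrays of one group. The median SD over all 6 arrays was 0.22 for the 71 genes, 0.33 over all genes tested and 0.31 over the 2530 genes of like level. Cox7b, a small complex IV subunit, had the largest SD, 1.15, with log2 readings of 8.68, 6.59 and 6.84 on the wild-type arrays and 6.43, 7.36 and 9.17 on the Tg arrays. Wild type 1 and Tg 3 stood above the other arrays of their groups, by 1.97 and 2.27. The same arrays were the high ones for Ndufb4, Ndufb5, Atp5k and Cox7a2, where wild type 1 was higher by 0.71 to 0.93 and Tg 3 by 0.74 to 1.39. Wild type 1 exceeded the mean of wild type 2 and 3 in 58 of the 71 genes, Tg 3 exceeded the mean of Tg 1 and 2 in 40, and both held in 35. Across the 71 genes, which share the same 6 arrays and are not independent replicates, these differences correlated at Pearson r = 0.499 and Spearman rho = 0.29, and at 0.300 and 0.259 without Cox7b. Over all 12426 genes the values were 0.319 and 0.271. What these arrays share was not tested.

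**Figure D4:**
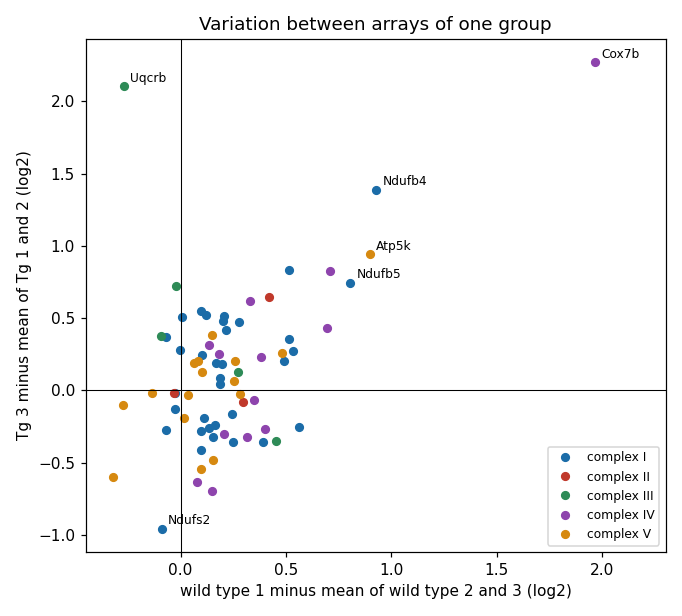
Difference of wild type 1 from the mean of wild type 2 and 3 (horizontal axis, log2) against the difference of Tg 3 from the mean of Tg 1 and 2 (vertical axis, log2), 1 point for each of the 71 genes, coloured by complex. Cox7b lies highest on both axes at 1.97 and 2.27, and Uqcrb is high in Tg 3 alone.

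Of the 71 genes, 22 had more than 1 kept probe. The probes of 18 of these gave differences of one sign, and those of 4, Atp5f1, Ndufa5, Ndufb8 and Ndufc2, gave both signs. The median spread between the probes of a gene was 0.13 on the log2 scale. Ndufs4, a complex I subunit, had 4 kept probes with positive values of 0.08 to 0.43, and Tg 3 was the highest array for each. Atp5f1, now named Atp5pb, a stator subunit, had -0.26 and -0.15 at its brighter pair of probes and 0.15 and 0.19 at its dimmer pair.

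Further genes of the pathway were described through lists chosen with earlier results of these data known. Of their genes, Ndufa12l among the assembly factors and Ndufa4 and Uqcr among the other subunits also belong to the 71. Of 8 names of mitochondrially encoded subunits, 7 were tested, 4 positive and 0 called, with 0 at an unadjusted p under 0.05, and a median of 0.15. All 7 had their highest value in Tg 3. MT-ATP6, a membrane subunit of complex V (listed as Gm10925 by its synonym), had log2 readings of 12.62, 12.48 and 12.40 on the wild-type arrays and 12.48, 12.53 and 13.49 on the Tg arrays, a difference of 0.33 ± 0.26 (SE; limma, adjusted p = 0.532). MT-ND4, a proton-pumping subunit of complex I, had 14.26, 14.28 and 14.17 in wild type and 14.40, 14.09 and 14.73 in Tg, a difference of 0.17 ± 0.15 (SE; limma, adjusted p = 0.607). In both genes Tg 3 stood above every other array.

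Of 38 tested assembly factors, 1 rose and 2 fell, or 7.89%, against 4.23% of all genes called, with a median of -0.11. Uqcc2, which assembles complex III, had log2 readings of 12.84, 12.61 and 12.64 on the wild-type arrays and 11.39, 11.74 and 11.87 on the Tg arrays, and fell by 1.03 ± 0.16 (SE; limma, adjusted p = 0.017). Coa5, needed for complex IV assembly, had 10.51, 10.61 and 10.62 in wild type and 9.60, 9.78 and 9.43 in Tg, and fell by 0.97 ± 0.17 (SE; limma, adjusted p = 0.0241). Sdhaf4, which assists the flavoprotein of complex II, had 9.52, 9.61 and 9.48 in wild type and 10.24, 10.35 and 10.40 in Tg, and rose by 0.79 ± 0.16 (SE; limma, adjusted p = 0.0361). In these 3 genes the groups did not overlap. Their directions held with each array left out, but each call was lost without wild type 1, 2 or 3 or Tg 1 (adjusted p of 0.0599 to 0.101 for Uqcc2, 0.0809 to 0.17 for Coa5 and 0.0868 to 0.226 for Sdhaf4, limma), and that of Sdhaf4 also without Tg 3 (adjusted p = 0.0578). Under all 21 alternatives run, the call was kept in 15 for Uqcc2, in 14 for Coa5 and in 11 for Sdhaf4.

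Of 20 tested genes of protein import and cristae, 0 rose and 1 fell, or 5%, which is near the 4.23% of all genes, with a median of -0.22. This was Hspd1, the mitochondrial chaperonin HSP60, with log2 readings of 12.61, 12.61 and 12.58 on the wild-type arrays and 11.73, 11.47 and 12.09 on the Tg arrays. It fell by 0.84 ± 0.17 (SE; limma, adjusted p = 0.0368), and the call was lost without wild type 1, 2 or 3 or Tg 1 (adjusted p of 0.113 to 0.178, limma). Under all 21 alternatives run, the call of Hspd1 was kept in 11. In the remaining lists 0 genes were called in either direction, and their shares at an unadjusted p under 0.05, from 6.25% to 31.2%, are read against the 20% of all genes. Of 16 citric acid cycle and pyruvate dehydrogenase genes, 4 were positive, with a median of -0.20 and 1 lower at an unadjusted p under 0.05, Pdha1, with a log2 fold change of -0.65 ± 0.19 (SE; limma, adjusted p = 0.105). Of 16 genes of mitochondrial biogenesis and genome upkeep, 5 were positive, with a median of -0.30, and 1 higher and 1 lower at an unadjusted p under 0.05. These were the related mitochondrial transcription factor genes Tfb1m and Tfb2m, with log2 fold changes of 0.57 ± 0.20 and -0.63 ± 0.21 (SE; limma, adjusted p = 0.152 and 0.144). Of 16 carriers and superoxide defence genes 4 were higher and 1 lower, of 11 coenzyme Q synthesis genes 1 higher and 2 lower, and of 11 other subunits and mobile carriers 1 higher and 1 lower at an unadjusted p under 0.05, with medians of 0.10, -0.11 and 0.0010. Etfb, a subunit of the electron transfer flavoprotein, had 10.94, 10.93 and 10.98 in wild type and 11.44, 11.41 and 11.24 in Tg, with a log2 fold change of 0.41 ± 0.14 (SE; limma, adjusted p = 0.141). Cytochrome c (Cycs), the mobile carrier between complexes III and IV, had 11.68, 11.48 and 11.46 in wild type and 10.84, 10.84 and 11.48 in Tg, with a log2 fold change of -0.49 ± 0.20 (SE; limma, adjusted p = 0.235).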

How the data were processed

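RNA of 6 samples, 3 wild type and 3 miR-185 Tg by their titles, was measured on 6 arrays of 1 chip. GenomeStudio 1.9.0 made the deposited probe intensity table, and normalization was none, per the file headers. It gives the mean bead intensity of each probe, the SD between beads, the count of beads, and a detection score, a fraction from 0 to 1 deposited without explanation and taken here as 1 minus a detection p-value. The sources used here do not say whether background was subtracted. The authors' values in the series table equal the log2 of the deposited gene-averaged intensity (largest difference 6.3e-07 over 34749 values per array, column medians 6.65 to 6.78), so they are neither centred nor normalized between arrays, and direction is not in question.

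Intensities were corrected with normexp fitted from detection p-values (offset 16) and quantile normalized (neqc, limma 3.58.1, R 4.3.3). Probes detected (p under 0.05) on 3 or more arrays were kept, each gene was represented by its brightest kept probe, and all 12426 genes were fitted with lmFit and eBayes with a trend, with Benjamini-Hochberg adjustment. The fit was tested on simulated data. Log2 differences understate changes of dim genes. Of 30774 array names, 15991 matched a RefSeq symbol of GRCm38.p6 and 5826 a unique synonym, and 8957 were kept. The number of arrays limits the precision.

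Complexes were assigned by gene name and described by counts and medians, with no test of a list. Genes given array by array were those with an unadjusted p under 0.05, the highest and lowest of each complex, tissue forms and matches that are not subunits; other members, and Cd8b1, Cd44 and the probe examples, were chosen after their values were seen. From the pathway lists, called genes and at most 2 others per list were named. The members and lists were chosen with earlier results of these data known. Alternatives covered background correction, offset, normalization, the authors' log2 values, the detection filter, the trend, weights for arrays, a block for replicate number, leaving out each array, wild type 2 and 3 averaged, the probe rule, the threshold and the assignment of members. For their alternative, the authors' log2 values were quantile normalized and fitted for 12388 of the genes of the main fit. The row rule of the series values and the alternatives for called genes outside the 71 were added after seeing the data.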

Additional observations from a re-analysis of the deposited data

How the results depend on the processing

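The count of respiratory chain genes called, 1, was 0 under median scaling, with the replicate block and with wild type 2 and 3 averaged, 3 at an adjusted p under 0.1 (Cox6a2, Cox6b2 and Atp5b) and 17 with array weights, where 4472 of all genes were called in place of 526. With 1 array left out it ran from 0 to 5: it was 0 without wild type 1, wild type 2, wild type 3 or Tg 1, 5 without Tg 2 and 2 without Tg 3, while the count over all genes ran from 1 to 1709. Cox6a2 kept its direction under all 21 alternatives run and its call under 13, with log2 fold changes of 0.77 to 1.47. With 1 array left out, the medians of complexes I to V ran from -0.073 to 0.10, from -0.36 to -0.13, from -0.16 to 0.20, from -0.13 to 0.07 and from -0.16 to 0.017. Without Tg 2 the median of complex III was 0.20 and that of complex V -0.16. Without wild type 1 the median of complex I was 0.10, and without Tg 3 that of complex III was -0.16. The median of complex V was -0.15 with array weights. Under the other alternatives each complex median moved by less than the SD of its array medians within groups, with Ndufa4 moved to complex IV and with subunits alone among them. The difference of Cox4nb turned to -0.14 with array weights, to -0.025 with wild type 2 and 3 averaged and ran from -0.19 to 0.11 with 1 array left out, and that of Uqcrh ran from -0.046 to 0.20. On the authors' series values the count was 1 with the brightest row of a gene, as in the main analysis, and 0 with its first row. Both were kept because the choice between them was made after seeing the data. The first row also turned Sdhaf4 to -0.028, read there from another array name whose probe was not detected on any array. The other causes were not tested. Same-numbered samples did not deviate together (r = -0.252, 0.109 and -0.217 over all genes for numbers 1, 2 and 3), so the replicate block pairs samples that share only a number. For 8 of the 79 names no probe was detected, and low signal and a probe that does not work cannot be told apart.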

Other observations

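The genes next to Cox6a2 and Cox6b2 among those tested were examined after the values of both were seen, with gene order from the RefSeq table of GRCm38.p6. Itgad, the tested gene next to Cox6a2 on one side on chromosome 7, had a log2 fold change of -0.0008 ± 0.17 (SE; limma, adjusted p = 0.998). On the other side, 9130023H24Rik had -0.07 ± 0.13 (SE; limma, adjusted p = 0.817). Of the 6 tested genes nearest Cox6b2, 3 on each side on the same chromosome, 1 was called, against 4.23% of all genes tested. This was Tmem238, the next tested gene on one side, with log2 readings of 9.59, 8.88 and 9.04 on the wild-type arrays and 7.08, 8.01 and 7.85 on the Tg arrays. Tmem238 fell by 1.53 ± 0.32 (SE; limma, adjusted p = 0.0397), a call lost without wild type 1, 2 or 3 or Tg 1 (adjusted p of 0.0998 to 0.173, limma). Its groups did not overlap, as was the case for Cox6b2 and for 28.2% of all genes tested. A link between Tmem238 and Cox6b2 was not tested. Under all 21 alternatives run, the call of Tmem238 was kept in 14. Kmt5c, the next tested gene on the other side, had a log2 fold change of 0.15 ± 0.30 (SE; limma, adjusted p = 0.839). Of the 6 tested genes nearest Atp5b, 0 were called, with the glutaminase gene Gls2 at -0.60 ± 0.16 (SE; limma, adjusted p = 0.0793).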
